A study of Mus musculus with 30 samples.

Results

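The genes described here are 40 genes of the endoplasmic reticulum (ER) stress and integrated stress responses, listed by name and measured in the livers of 30 mice, 1 array per mouse. Each gene was read from the probe set that names it alone and has the highest mean over the 30 arrays, and all 40 were found among 17097 genes named in this way. The RNA came from liver tissue outside tumours. Labels put the mice in 5 groups. The first held 5 healthy mice on chow, which are also labelled as given vehicle (Hlth). The 25 others were kept on CD-HFD, a high-fat diet without choline that serves as a model of fatty liver inflammation leading to hepatocellular carcinoma (HCC), and are labelled as chronically damaged. They comprised 5 mice given vehicle that developed neither HCC nor fibrosis (Veh_low), 4 given vehicle that developed both (Veh_high), 10 given sulindac as prevention (Sulin) and 6 given aspirin with clopidogrel (AspClo). Sulindac and aspirin inhibit cyclooxygenases, and clopidogrel blocks an ADP receptor of platelets. The labels state for the drug arms neither a dose nor which mice developed HCC, and they give no strain, genotype, sex, age, batch or collection time for any group.

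Proteins that enter the ER are folded there by chaperones and disulfide isomerases, and those that fail are sent back to the cytosol for degradation (ER-associated degradation, ERAD). Unfolded protein is sensed by 3 membrane proteins, encoded by Ern1, Eif2ak3 and Atf6, which raise transcription of folding and degradation genes through the factors XBP1 and ATF6. Phosphorylation of the translation factor eIF2 by PERK, the product of Eif2ak3, or by kinases that sense other stresses is the integrated stress response, which raises ATF4 and its targets. The liver secretes most plasma proteins, and its folding genes are known to follow feeding and time of day.

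The regulatory sequence most tied to ER stress in these genes is the ER stress element, CCAAT followed after 9 bases by CCACG, a site for NF-Y beside ATF6 or XBP1. It was searched on both strands of the RefSeq promoters (build GRCm38.p6, 250 bases before to 50 after each start), which were held for 36 of the 40 genes. The element was in 9 of the 36 (25%), namely Hspa5, Hsp90b1, Pdia6, Calr, Canx, Dnajc3, Creld2, Syvn1 and Derl3, against 37 of 27025 genes with a promoter (0.137%). Both the element and the genes were picked for their known tie to ER stress, so these shares are not a test. The stretches below are those of the genes whose levels differed most between mice, with Hspa5 as the reference chaperone and Hsp90b1 as the gene with 2 matches. They are given in the direction of the gene, and capitals mark the CCAAT and CCACG parts or, where the match lies on the other strand, their reverse complements.
Hspa5: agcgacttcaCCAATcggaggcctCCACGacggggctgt
Creld2: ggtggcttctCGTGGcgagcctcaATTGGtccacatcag
Syvn1: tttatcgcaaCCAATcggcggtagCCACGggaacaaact
Derl3: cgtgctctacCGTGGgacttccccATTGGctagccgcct
Hsp90b1: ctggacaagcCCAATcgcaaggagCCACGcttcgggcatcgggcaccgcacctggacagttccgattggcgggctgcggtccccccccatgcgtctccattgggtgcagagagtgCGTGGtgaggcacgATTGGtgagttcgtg

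The Hspa5 stretch is at chr2:34772015-34772053 on the plus strand, and its element starts at position -65 from the gene's start. The Creld2 stretch is at chr15:88819510-88819548, that of Syvn1 at chr19:6046522-6046560 and that of Derl3 at chr10:75893232-75893270, all on the plus strand. The Hsp90b1 stretch is at chr10:86705523-86705666 on the minus strand. The CCACG part alone was in 29 of 36 promoters (80.6%), against 35.5% of all genes, and the CCAAT part in 27 (75%), against 41.1%. The unfolded protein response element TGACGTGG, whose reverse complement overlaps the CCACG part, was in 0 of 36, against 0.714% of all genes. The C/EBP-ATF element TGATGCAAT, bound by ATF4 and CHOP with C/EBP proteins, was in 1 of 36 (2.78%), Nupr1, against 0.222%. It is shown for Nupr1, with the reverse complement in capitals, from chr7:126625563-126625591 on the minus strand.
Nupr1: aaagggccagATTGCATCAgacagggctt

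A match says only that these letters lie in the window. With any base at the sixth position (TGATGNAAT), the C/EBP-ATF element was still found in Nupr1 alone, against 1.08% of all genes. Of the folding genes, 7 hold the ER stress element, and of the ERAD genes 2 do.

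The arrays were alike in scale, with a median intensity between 24.1 and 24.6 and a correlation between arrays from 0.974 to 0.996. Of the 40 genes, 36 had a mean at or above the median of all gene means, which was 4.90 in log2 intensity, and the other 4 were Asns, Psat1, Phgdh and Trib3, for which changes are compressed by background. All 12 hepatocyte markers lay above that median in every group, and their summed intensity ran from 78574 to 89596. In whole liver, fewer cells of a type and less RNA per cell cannot be told apart. The labels state 1 animal per array, so p-values measure the spread between mice.

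**Figure D1:**
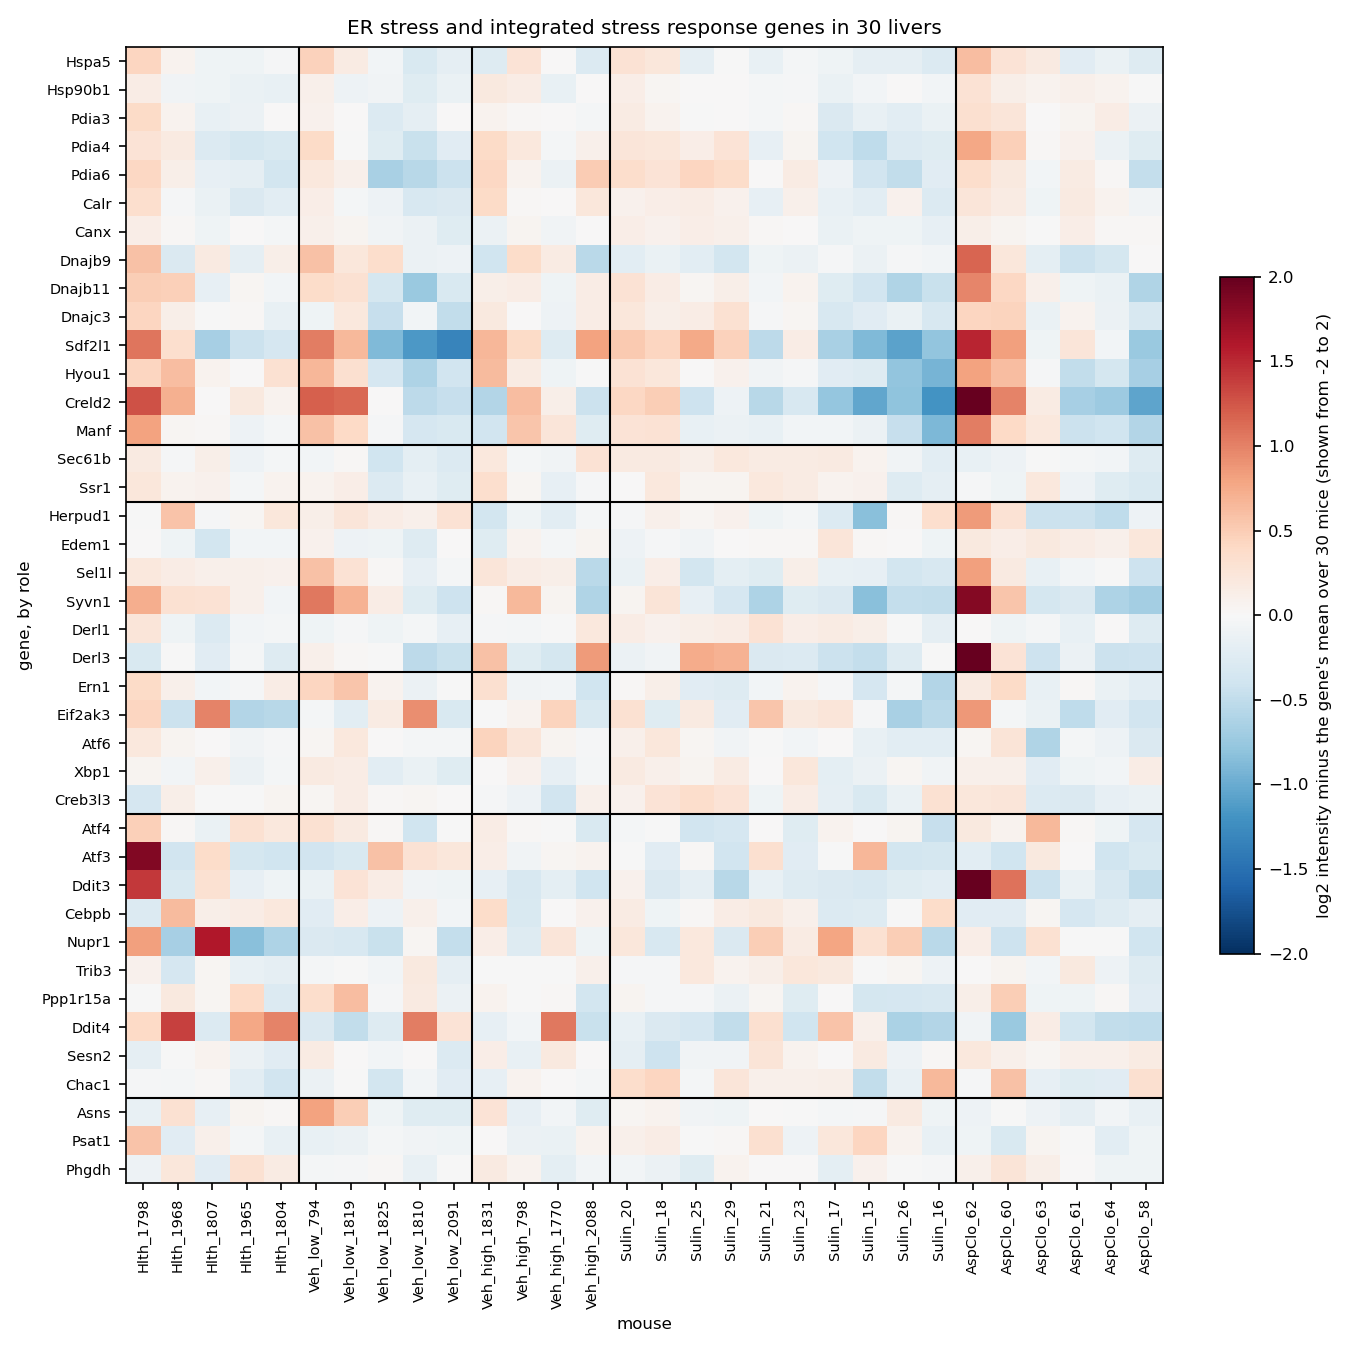
Log2 intensity of 40 genes (rows, ordered by role) in 30 mice (columns, by group and then by the mean over the genes), minus each gene's mean over all mice; red is higher and blue is lower, and the colours end at 2. AspClo_62, Hlth_1798, Veh_low_794, AspClo_60 and Veh_low_1819 are the mice with the highest means over the 40 genes, and they lie in 3 different groups.

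The widest differences among these genes were between mice of the same group. The SD within groups had a median of 0.248 over the 40 genes on the log2 scale, against 0.121 over all 17097 genes and 0.192 over the 8549 genes at or above the median mean. It lay above the 90th percentile of all genes for 16 of the 40, and above that of the brighter genes for 11. Creld2, an ER-resident isomerase induced by stress, had the widest spread (SD 0.80), followed by the chaperone cofactor Sdf2l1 (0.77), Ddit3, which encodes the stress factor CHOP (0.61), the ERAD gene Derl3 (0.61) and the ERAD ubiquitin ligase Syvn1 (0.58). At the other end, Canx (0.10), Hsp90b1 (0.11), Edem1 (0.11) and Derl1 (0.12) varied little.

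Hspa5 encodes BiP, the main ER chaperone and the one that holds the stress sensors inactive. Its log2 intensity in the chow mice was 11.79 in Hlth_1798 and 11.34, 11.28, 11.44 and 11.27 in Hlth_1804, Hlth_1965, Hlth_1968 and Hlth_1807. In Veh_low_1810, Veh_low_1825, Veh_low_2091, Veh_low_794 and Veh_low_1819 it was 11.05, 11.31, 11.19, 11.82 and 11.53, and in Veh_high_798, Veh_high_1770, Veh_high_1831 and Veh_high_2088 it was 11.64, 11.37, 11.11 and 11.10. It ran from 11.09 over a median of 11.25 to 11.65 in Sulin and from 11.11 over 11.39 to 11.99 in AspClo. All 5 groups overlapped, and the highest mouse of each of Hlth, Veh_low and AspClo stood above every Sulin mouse.

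Creld2 followed the same mice over a wider range. It was 10.58, 9.38, 9.51, 10.02 and 9.31 in Hlth_1798, Hlth_1804, Hlth_1965, Hlth_1968 and Hlth_1807, and 8.78, 9.31, 8.85, 10.50 and 10.45 in Veh_low_1810, Veh_low_1825, Veh_low_2091, Veh_low_794 and Veh_low_1819. In Veh_high_798, Veh_high_1770, Veh_high_1831 and Veh_high_2088 it was 9.92, 9.42, 8.72 and 8.87. The Sulin mice ran from 8.11 in Sulin_16 over a median of 8.82 to 9.80 in Sulin_18, and the AspClo mice from 8.25 in AspClo_58 over 9.05 to 11.56 in AspClo_62. Within the aspirin arm alone, AspClo_62 was 5.70-fold above the other AspClo mice, and AspClo_58 was at 0.365 of its others. Here and below, the fold of a single mouse is taken from its difference to the mean log2 intensity of the others in its group.

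AspClo_62 stood highest. It held the highest value of all 30 mice for 14 genes, and 14 of its 40 values lay more than 0.5 above the gene's mean over all mice. All 14 folding genes and all 6 ERAD genes were above their own means in it, as were all 5 sensors and factors. Against the other AspClo mice, Derl3 was 6.24-fold higher, Ddit3 5.86-fold, Syvn1 4.32-fold, Sdf2l1 2.79-fold, Dnajb9 2.48-fold and Herpud1 2.12-fold. Its Ddit3 was 8.61, against 5.62 to 7.20 in the others, and its Derl3 was 7.45, against 4.60 to 5.30. In the plasma cell list, of which 6 of 7 measured markers lay below the median gene mean in every group, Jchain was 8.82 in this mouse, 8.66 in AspClo_63 and 9.14 in Veh_low_794, against 7.15 or less in the other mice. Derl3 was at 4.61 in AspClo_63 and 5.13 in Veh_low_794, the other mice with a high Jchain. The other Veh_low mice had Derl3 from 4.51 to 5.05. The part of plasma cells in these values was not tested.

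Hlth_1798, a chow mouse, was the next highest, with 31 of 40 genes above their means. Its Cebpb was the lowest of the chow group, at 10.34 against 10.72 to 11.24. Of the 10 factors and feedback genes of the integrated stress response, 6 were above their means in this mouse. Atf3, a stress-induced factor, was 7.12 in it against 4.87, 4.92, 4.88 and 5.63 in Hlth_1804, Hlth_1965, Hlth_1968 and Hlth_1807, a 4.13-fold difference from their mean. Its Ddit3 was 7.52 against 5.81 to 6.42, 2.78-fold, and its Sdf2l1 was 2.55-fold and Manf, a secreted protein of stressed cells, 1.77-fold above the other chow mice. Derl3 was at 4.72, below all the other chow mice. The summed intensity of the 12 macrophage markers was also highest in this mouse, at 12720 against a chow median of 4340, and its part in these values was not tested.

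Other mice raised other genes. In Hlth_1807 the stress-induced factor Nupr1 was 6.76, against 4.33 to 5.98 in the other chow mice, and Eif2ak3, which encodes PERK, was 7.87 against 6.28 to 7.30. Folding genes were not raised with them there, with Sdf2l1 at 8.25 and Creld2 at 9.31, the lowest of the chow group. This mouse also had the highest summed markers of neutrophils in its group (1286, against 161 to 230), of stellate cells (9328, against 2797 to 5367) and of cholangiocytes (457, against 130 to 140), whose part was not tested. Veh_low_794 had Sdf2l1 3.25-fold, Creld2 2.23-fold and Syvn1 2.01-fold above its group, while its Ddit3, 5.99, was the lowest of the Veh_low mice. It also had the highest Asns, asparagine synthetase, an ATF4 target, at 5.33 against 4.28 to 5.02 in the others of its group. The lowest means over the 40 genes were in AspClo_58, Sulin_16, Sulin_26, Veh_low_2091 and Sulin_15, so that AspClo and Veh_low each held mice at both ends.

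The mean over the 40 genes, each minus its mean over all mice, summarises this. It ran from -0.06 to 0.35 in Hlth, from -0.20 to 0.21 in Veh_low, from -0.04 to 0.09 in Veh_high, from -0.25 to 0.11 in Sulin and from -0.27 to 0.52 in AspClo. The 5 ranges overlapped, and their medians, 0.03, -0.11, 0.03, 0.00 and -0.07, differed by less than the pooled SD within groups of 0.18.

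To describe which genes followed Hspa5 from mouse to mouse, the level of Hspa5 was added as a term to the 5 group means for every other gene, so that differences between groups were set aside. A slope of 1 means that a gene changed by the same factor as Hspa5. The slope passed an adjusted p under 0.05 (limma, Benjamini-Hochberg adjustment over 17096 genes) for 140 genes, 0.819% of all. Among the other 39 stress genes it passed for 11, each with a positive slope, where 0.643% of all genes passed with a positive slope. Creld2 (2.95, SE 0.19), Manf (1.62, SE 0.11) and Syvn1 (1.96, SE 0.22) had the 3 smallest p-values of all genes, with adjusted p from limma of 1.73e-10, 1.73e-10 and 8.10e-06. The form of this test was chosen after the values by mouse had been seen.

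**Figure D2:**
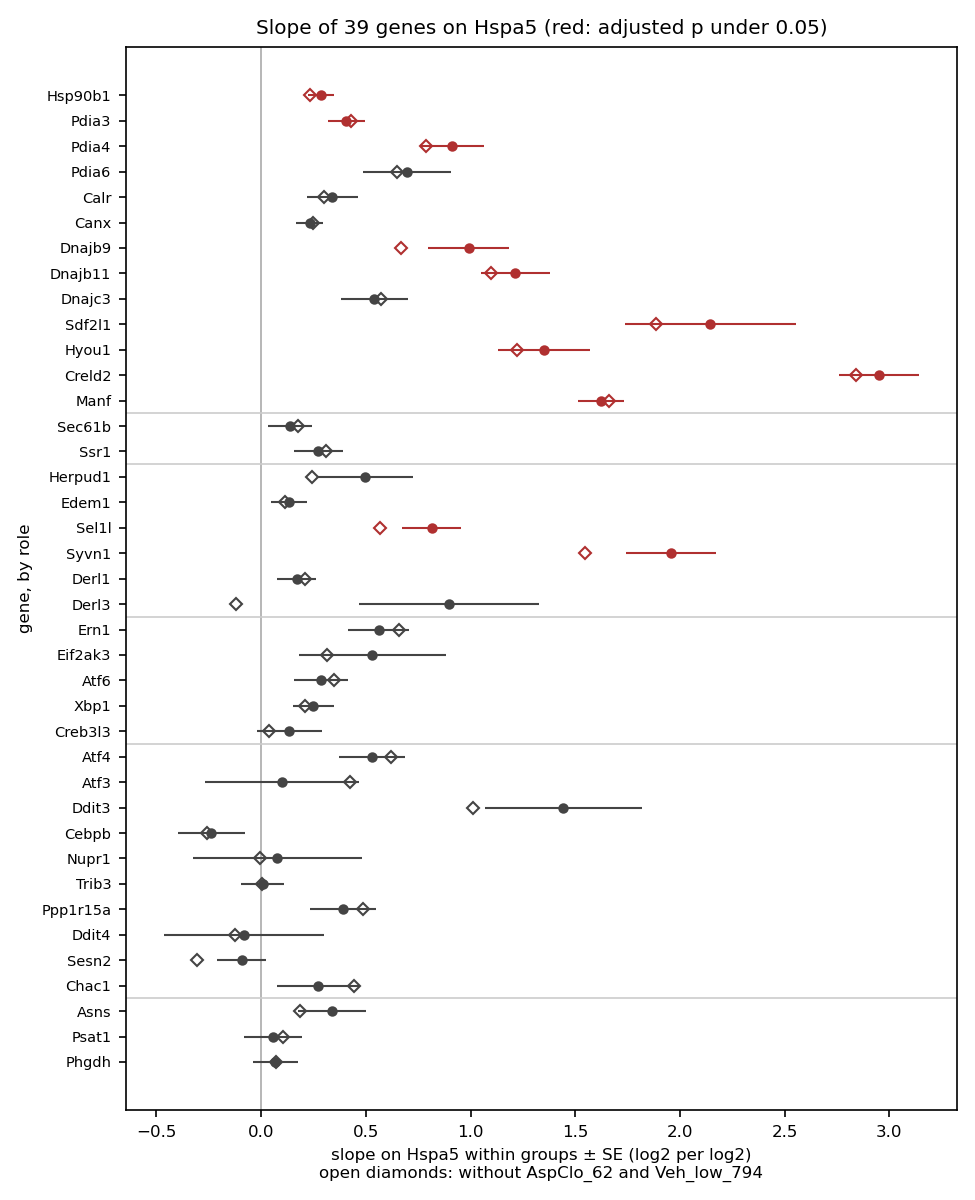
Slope of each of 39 genes on Hspa5 within groups (filled points, bars are the SE, log2 per log2), with red for an adjusted p under 0.05 in limma, and the slope without AspClo_62 and Veh_low_794 (open diamonds). The 11 red genes are 9 folding genes and 2 ERAD genes, and the slopes of Derl3 and Nupr1 fall below 0 without those mice.

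The genes that followed Hspa5 were divided by role. They were 9 of the 13 other folding genes, among them the cochaperones Dnajb11 (slope 1.21) and Dnajb9 (0.99), the nucleotide exchange factor Hyou1 (1.35), Sdf2l1 (2.14), the isomerases Pdia4 (0.91) and Pdia3 (0.41), and Hsp90b1 (0.29), the ER form of HSP90. They were 2 of 6 ERAD genes, Syvn1 and its partner Sel1l (0.81), which together form the main retrotranslocation ligase. None of the 5 sensors and factors, the 2 translocation genes or the 3 genes of amino acid synthesis passed, and none of the 10 factors and feedback genes of the integrated stress response did. Closest to passing were Ddit3, with a slope of 1.44 (SE 0.37, adjusted p = 0.0696, limma), and the sensor Ern1, with 0.56 (SE 0.15, adjusted p = 0.0696, limma). Atf4 had a slope of 0.53 (SE 0.16), and Cebpb, Sesn2 and Ddit4 had slopes below 0. Whether the slopes of the roles differ from each other was not tested.

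Without AspClo_62 and Veh_low_794, whose Hspa5 was farthest from their group means, 22 genes passed (0.129%), 4 of them stress genes. These were Creld2 (slope 2.84), Manf (1.66), Syvn1 (1.55) and Dnajb11 (1.10). The slope of Hyou1 was then 1.22 (adjusted p = 0.0882, limma) and that of Derl3 -0.12, against 0.90 with those mice. Of the 8 other genes with an ER stress element in the promoter, 3 had passed with all mice. Of the 31 remaining genes 8 had, and these 31 include the genes for which no promoter was held. Among 119 further genes of the same pathways, 13 passed with all mice, all positive, and 0 without those mice. They were 8 of 24 genes of translocation and export, among them the signal peptidase subunits Spcs2 and Spcs3 and the coat proteins Sec23b and Sec24d, 3 of 14 ERAD genes (Selenos, Edem3 and Ufd1), the oxidase Ero1b with a slope of 1.36, and Wfs1. None of 36 further targets of the integrated stress response passed.

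The 2 mice Veh_high_1831 and Veh_high_2088 had folding genes at both ends of their group's range. In them the clock output gene Dbp was at 10.00 and 10.20, against 4.60 and 4.37 in Veh_high_798 and Veh_high_1770. These mice had the lowest Hspa5, Creld2 and Manf of their group, with Manf at 10.63 and 10.77 against 11.57 and 11.27. They had the highest Sdf2l1 of the group, 9.57 and 9.71 against 9.29 and 8.65, and the highest Derl3, 5.61 and 5.87 against 4.79 and 4.68. Pdia6, Calr and Sec61b were also highest in them. Dbp ran from 4.40 to 5.20 in Veh_low, from 5.29 to 10.20 in Sulin and from 5.30 to 10.20 in AspClo. The summed intensity of the 11 measured clock genes of 13 listed ran from 1865 to 2139 in Veh_low, from 1398 to 4775 in Veh_high, from 1653 to 5333 in Sulin, from 2141 to 5199 in AspClo and from 1303 to 2936 in Hlth. Collection time was not in the labels, and the part of the clock in the comparisons below was not tested.

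Between groups, few of these genes passed the threshold. In each comparison the 17097 genes were fitted with 5 group means in limma, with vehicle as the mean over its 9 mice, and a change passed at an adjusted p under 0.05. Of the 40 genes, 0 passed for vehicle against chow, 0 for vehicle with HCC against vehicle without, 0 for sulindac against vehicle, 1 for aspirin with clopidogrel against vehicle and 0 for aspirin with clopidogrel against sulindac. Of all genes, 0.0117%, 0.0877%, 0.199%, 1.96% and 0.877% passed in these comparisons. The first 4 share vehicle mice, and the fifth shares its mice with the third and the fourth.

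**Figure D3:**
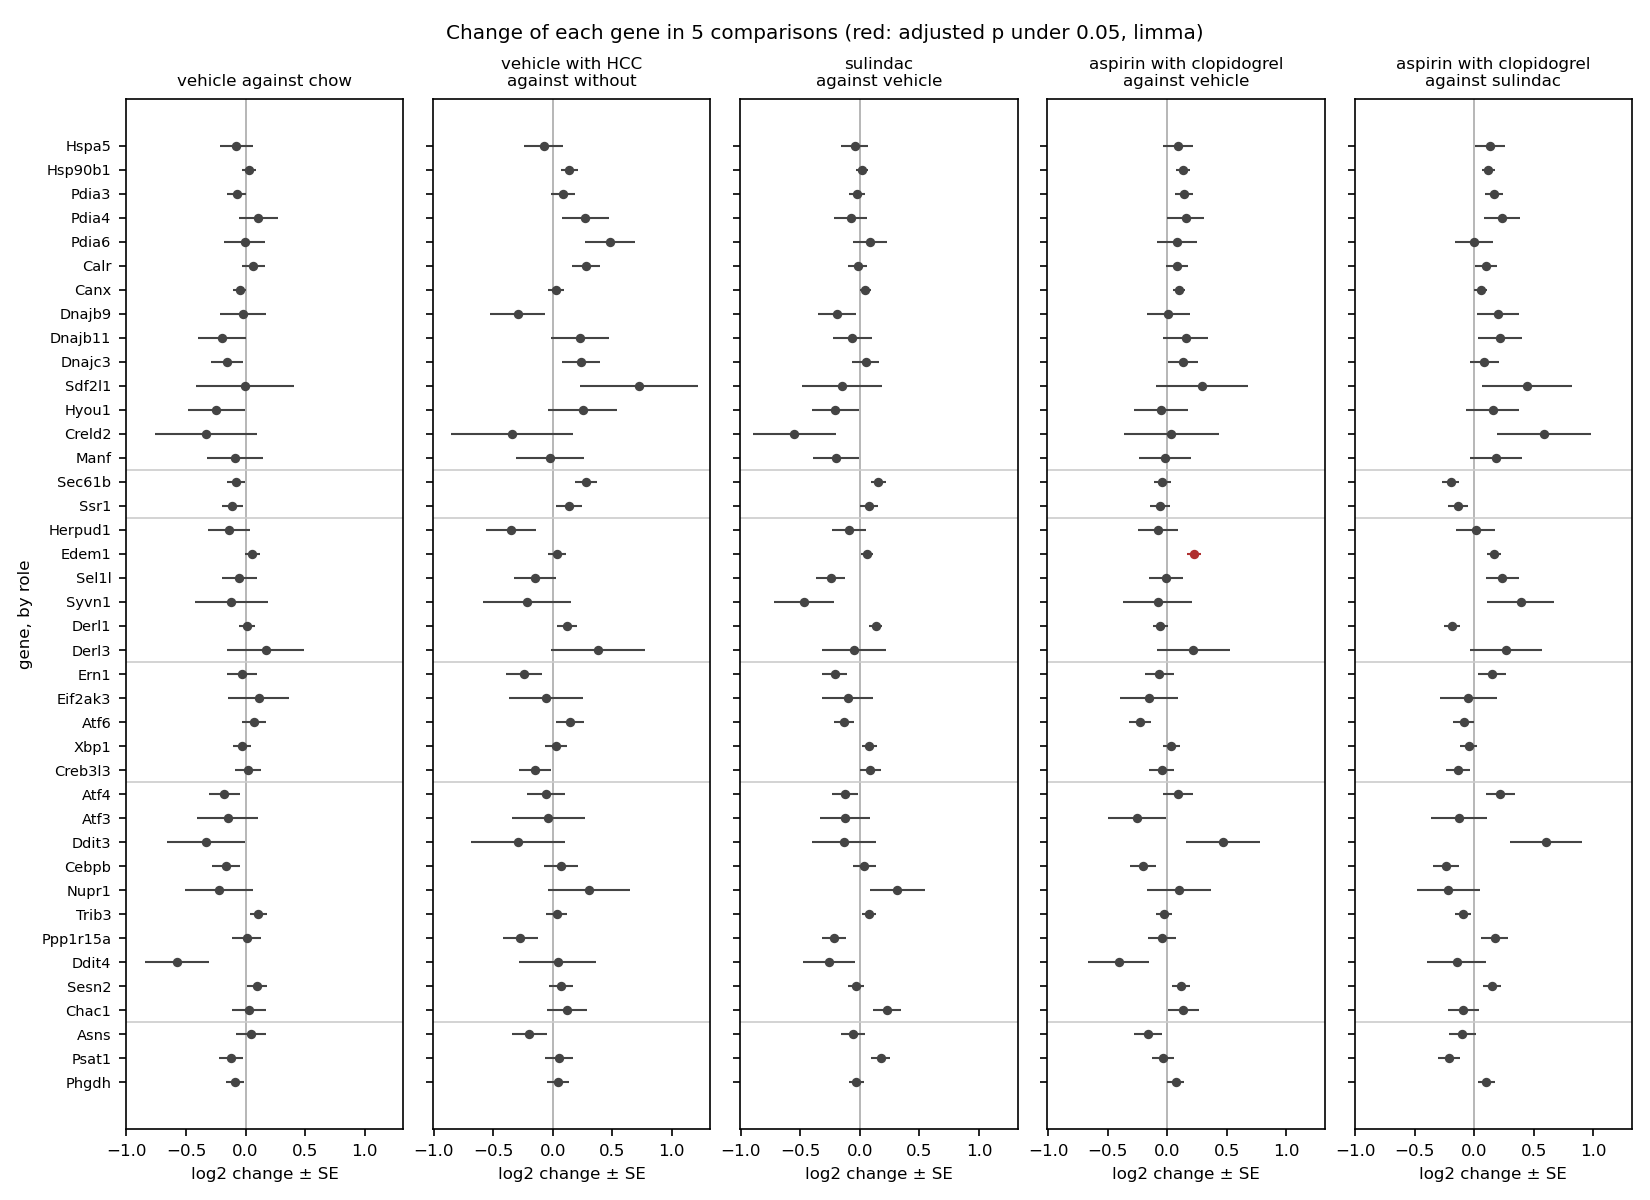
Change of each of 40 genes on the log2 scale (points, bars are the SE of the limma fit) in 5 comparisons, with genes ordered by role and red for an adjusted p under 0.05. Edem1 in aspirin with clopidogrel against vehicle, at 0.23, is the red point.

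The gene that passed was Edem1, a lectin-like protein that takes misfolded glycoproteins out of the folding cycle for degradation. It was 9.93, 10.11, 10.21, 10.28 and 10.10 in Veh_low_1810, Veh_low_1825, Veh_low_2091, Veh_low_794 and Veh_low_1819, and 10.27, 10.16, 9.95 and 10.25 in Veh_high_798, Veh_high_1770, Veh_high_1831 and Veh_high_2088. The AspClo mice ran from 10.30 in AspClo_64 over a median of 10.37 to 10.43 in AspClo_58, above all 9 vehicle mice. They were also above the chow mice, at 10.21, 10.14, 10.14, 10.11 and 9.83 in Hlth_1798, Hlth_1804, Hlth_1965, Hlth_1968 and Hlth_1807. The Sulin mice, from 10.09 over 10.20 to 10.44, overlapped all groups.

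Edem1 was higher by 0.23 (SE 0.06), or 1.17-fold, with aspirin and clopidogrel than with vehicle (adjusted p = 0.0407, limma). Of all genes, 0.392% had no overlap between these groups, and of the 40 genes Edem1 alone. Against chow the change was 0.28 (adjusted p = 0.0194, limma), where 2.77% of all genes passed, and against sulindac it was 0.17 and missed the threshold (adjusted p = 0.208, limma). The call was close to its limit. A second probe set of Edem1 gave 0.17 (adjusted p = 0.462, limma), and leaving out 1 mouse ended the call for 10 of 30 mice, with adjusted p up to 0.112 without AspClo_58. The summed intensity of 5 measured red blood cell markers of 9 listed also separated the groups, from 11690 to 15152 in AspClo against 3891 to 10894 in vehicle and 3298 to 6183 in chow. It was from 10919 to 14628 in Sulin, also above all vehicle mice, and its part in Edem1 and in the other differences of the drug arms was not tested.

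The folding genes did not pass with aspirin and clopidogrel. Of the 14 folding genes, 12 had a higher mean than in vehicle and 2 a lower one, with a median difference of 0.10. Without AspClo_62 the counts were 8 and 6 and the median 0.03. Against sulindac, 13 were higher and 1 lower (median 0.16), and 10 and 4 without AspClo_62 (median 0.04). Hsp90b1 ran from 11.80 over 11.90 to 12.11 in AspClo. In Veh_low_1810, Veh_low_1825, Veh_low_2091, Veh_low_794 and Veh_low_1819 it was 11.58, 11.74, 11.68, 11.91 and 11.72, in Veh_high_798, Veh_high_1770, Veh_high_1831 and Veh_high_2088 it was 11.96, 11.67, 12.01 and 11.81, and in Sulin it ran from 11.68 over 11.81 to 11.95. The groups overlapped, and its difference from vehicle of 0.13 missed the threshold (unadjusted p = 0.0262, adjusted p = 0.260, limma). Pdia3, for which the single-gene probe set lay near the median gene mean, ran from 5.08 over 5.30 to 5.51 in AspClo and from 4.91 over 5.17 to 5.36 in Sulin, a difference of 0.17 that also missed it (adjusted p = 0.422, limma).

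Ddit3 shows how far 1 mouse can carry a mean. Its difference between the aspirin arm and vehicle was 0.47 (SE 0.31, adjusted p = 0.520, limma) with all mice and 0.05 without AspClo_62. It was 6.04, 6.26, 6.04, 5.99 and 6.38 in Veh_low_1810, Veh_low_1825, Veh_low_2091, Veh_low_794 and Veh_low_1819, and 5.79, 5.92, 5.96 and 5.72 in Veh_high_798, Veh_high_1770, Veh_high_1831 and Veh_high_2088. In Sulin it ran from 5.56 over 5.87 to 6.20 and in AspClo from 5.62 over 5.89 to 8.61. The medians of the drug arms differed little, and AspClo_60 at 7.20 and AspClo_62 at 8.61 lay above all mice of Veh_low, Veh_high and Sulin.

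**Figure D4:**
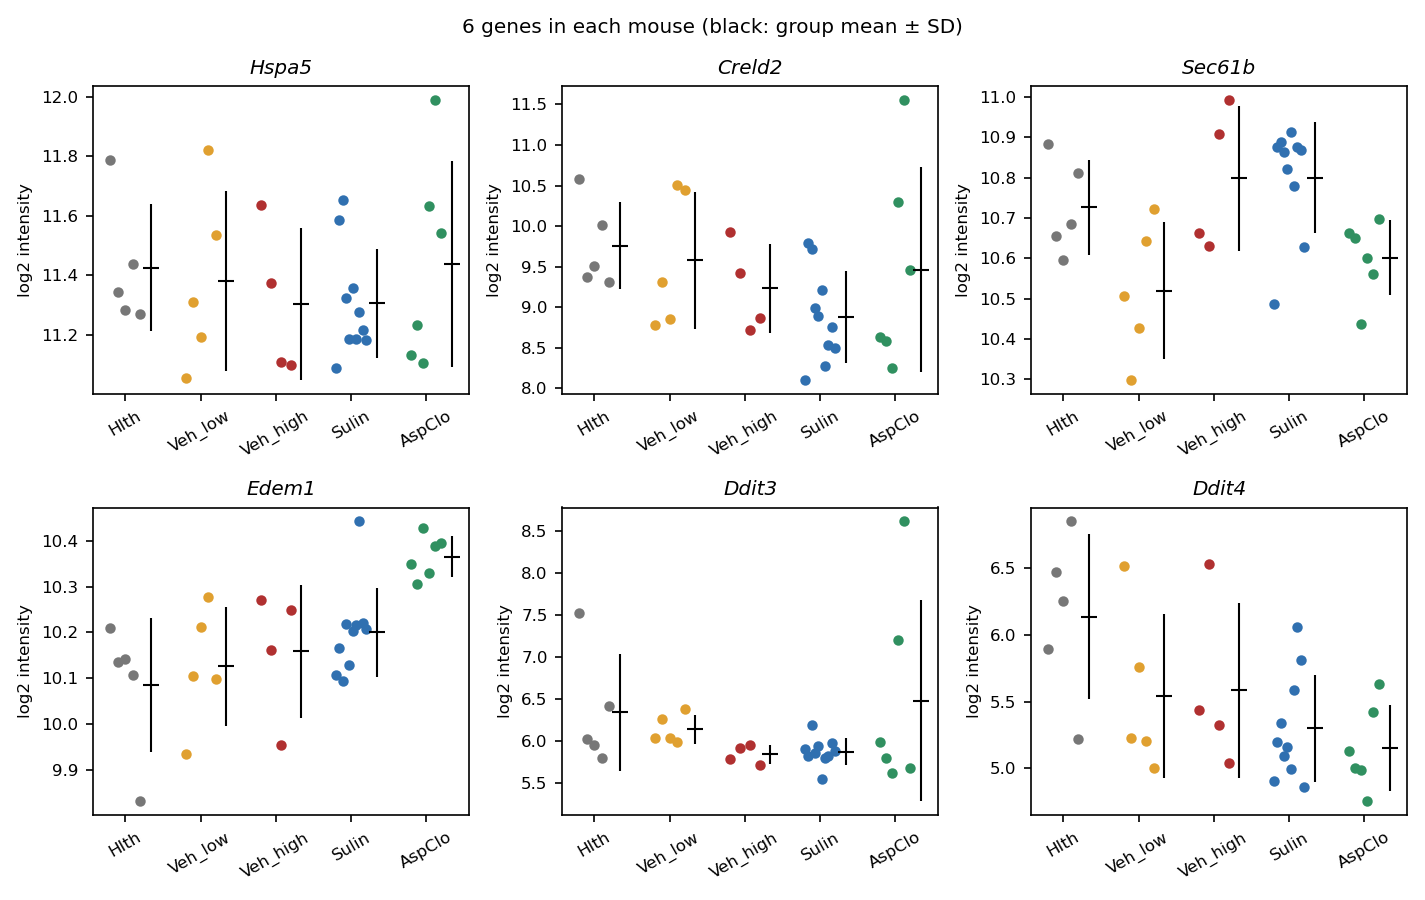
Log2 intensity of 6 genes in each of 30 mice by group (coloured points), with the group mean and SD in black; each panel has its own axis, which does not start at 0. For Edem1 every AspClo mouse lies above every Hlth, Veh_low and Veh_high mouse. For Hspa5, Creld2 and Ddit3 the highest of the 30 mice is AspClo_62, at 11.99, 11.56 and 8.61. The next AspClo mouse for these genes is AspClo_60, at 11.63, 10.29 and 7.20.

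Sec61b and Derl1 were the other genes nearest the threshold, and both lie at the ER channel for proteins. Sec61b, a subunit of the translocation channel, was 10.51, 10.30, 10.43, 10.64 and 10.72 in Veh_low_1810, Veh_low_1825, Veh_low_2091, Veh_low_794 and Veh_low_1819, and 10.66, 10.63, 10.91 and 10.99 in Veh_high_798, Veh_high_1770, Veh_high_1831 and Veh_high_2088. It was 10.88, 10.66, 10.60, 10.68 and 10.81 in Hlth_1798, Hlth_1804, Hlth_1965, Hlth_1968 and Hlth_1807, and ran from 10.49 over 10.87 to 10.91 in Sulin and from 10.44 over 10.63 to 10.70 in AspClo. The groups overlapped, with the AspClo mice at the level of most vehicle mice and the Sulin median near the upper end. Its difference was 0.28 for HCC (unadjusted p = 0.00507, adjusted p = 0.316), 0.16 for sulindac against vehicle (adjusted p = 0.357) and -0.20 for aspirin with clopidogrel against sulindac (adjusted p = 0.218), all from limma. Without Veh_high_1831 and Veh_high_2088 the sulindac difference was 0.24 and passed (adjusted p = 0.0468, limma), and the HCC difference was 0.13 (adjusted p = 0.958, limma).

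Derl1, a membrane protein of the ERAD channel, was 10.21, 9.93, 9.92, 9.89 and 9.69 in Hlth_1798, Hlth_1804, Hlth_1965, Hlth_1968 and Hlth_1807. It was 9.92, 9.88, 9.80, 9.89 and 9.94 in Veh_low_1810, Veh_low_1825, Veh_low_2091, Veh_low_794 and Veh_low_1819, and 9.92, 9.96, 9.95 and 10.18 in Veh_high_798, Veh_high_1770, Veh_high_1831 and Veh_high_2088. It ran from 9.78 over 10.09 to 10.25 in Sulin and from 9.71 over 9.90 to 9.98 in AspClo, and the arms overlapped. The difference between the arms was -0.19 (SE 0.06, unadjusted p = 0.00640, adjusted p = 0.187, limma), and with the probe set of largest SD it was 0.03. Ssr1, of the translocon-associated complex, differed by -0.13 between the arms and did not pass.

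In HCC against no HCC, the genes with the smallest p after Sec61b were the lectin chaperone Calr and the isomerase Pdia6. Calr was 11.10, 11.30, 11.12, 11.54 and 11.37 in Veh_low_1810, Veh_low_1825, Veh_low_2091, Veh_low_794 and Veh_low_1819, and 11.43, 11.41, 11.79 and 11.63 in Veh_high_798, Veh_high_1770, Veh_high_1831 and Veh_high_2088. Pdia6 was 9.86, 9.76, 9.97, 10.62 and 10.51 in the same Veh_low mice and 10.48, 10.29, 10.82 and 10.92 in the Veh_high mice. Both genes overlapped between the groups, and their differences of 0.28 (adjusted p = 0.445, limma) and 0.48 (adjusted p = 0.481, limma) did not pass. Without Veh_high_1831 and Veh_high_2088 they were 0.13 and 0.24. Of the 14 folding genes, 10 had a higher and 4 a lower mean with HCC. Herpud1 and Ddit3, both lower with HCC, had no overlap between the 4 and the 5 mice, 2 of 40 genes (3% of all genes), and neither passed the limma threshold. Unadjusted p was under 0.05 for 3 of the 40 genes, where it was for 8.87% of all genes.

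For vehicle against chow, the gene with the smallest p was Ddit4, an inhibitor of mTORC1 that also responds to glucocorticoids. It was 5.89, 6.48, 6.26, 6.85 and 5.22 in Hlth_1798, Hlth_1804, Hlth_1965, Hlth_1968 and Hlth_1807, and 6.52, 5.22, 5.76, 5.20 and 5.00 in Veh_low_1810, Veh_low_1825, Veh_low_2091, Veh_low_794 and Veh_low_1819. In Veh_high_798, Veh_high_1770, Veh_high_1831 and Veh_high_2088 it was 5.43, 6.54, 5.33 and 5.04, in Sulin it ran from 4.86 over 5.18 to 6.06 and in AspClo from 4.75 over 5.06 to 5.63. Chow and vehicle overlapped, and the difference of -0.58 (SE 0.27) missed the threshold (unadjusted p = 0.0401, adjusted p = 0.711, limma). Ddit4 was the one of 40 genes with an unadjusted p under 0.05 there, where 6.73% of all genes had one. The glucocorticoid-responsive genes Fkbp5 and Tsc22d3 were also high in Hlth_1804, Hlth_1965 and Hlth_1968, with Fkbp5 at 8.61, 8.66 and 9.26 against 7.62 and 7.05 in Hlth_1798 and Hlth_1807, and the part of that signal was not tested. Of the 14 folding genes, 3 had a higher and 11 a lower mean than in chow, with a median of -0.06.

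Among the sensors and factors, 0 of 5 passed in any of the 5 comparisons. Atf6, whose product is cut to a transcription factor on stress, was 8.80, 8.56, 8.52, 8.64 and 8.59 in Hlth_1798, Hlth_1804, Hlth_1965, Hlth_1968 and Hlth_1807. It was 8.55, 8.60, 8.56, 8.63 and 8.81 in Veh_low_1810, Veh_low_1825, Veh_low_2091, Veh_low_794 and Veh_low_1819, and 8.84, 8.64, 9.04 and 8.57 in Veh_high_798, Veh_high_1770, Veh_high_1831 and Veh_high_2088. It ran from 8.38 over 8.56 to 8.81 in Sulin and from 7.99 in AspClo_63 over 8.52 to 8.85 in AspClo. All groups overlapped, and the difference of AspClo from vehicle was -0.22 (unadjusted p = 0.0227, adjusted p = 0.243, limma). Without AspClo_63 this difference was -0.13 (adjusted p = 0.531, limma), and a second probe set of Atf6 gave -0.05. Xbp1, Ern1, Eif2ak3 and Creb3l3, a liver factor activated like ATF6, had p above 0.05 in all 5. The values used here are RNA levels per probe set, and they show neither splicing of Xbp1 nor cleavage of the ATF6 protein.

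Of the integrated stress response, 0 of 10 factors and feedback genes passed in the 5 comparisons. Ppp1r15a encodes GADD34, which ends the response by removing the phosphate from eIF2. It was 5.64, 5.43, 5.34, 5.81 and 6.08 in Veh_low_1810, Veh_low_1825, Veh_low_2091, Veh_low_794 and Veh_low_1819, 5.45, 5.48, 5.53 and 5.10 in Veh_high_798, Veh_high_1770, Veh_high_1831 and Veh_high_2088, and ran from 5.10 over 5.39 to 5.51 in Sulin and from 5.23 over 5.42 to 5.95 in AspClo. It was 5.45, 5.19, 5.86, 5.66 and 5.49 in Hlth_1798, Hlth_1804, Hlth_1965, Hlth_1968 and Hlth_1807. The groups overlapped, and the difference of sulindac from vehicle was -0.21 (unadjusted p = 0.0422, adjusted p = 0.453, limma).

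Cebpb, a factor of the acute phase and of stress, ran from 10.33 over 10.67 to 10.97 in Sulin and from 10.27 over 10.38 to 10.64 in AspClo. It was 10.34, 10.81, 10.76, 11.24 and 10.72 in Hlth_1798, Hlth_1804, Hlth_1965, Hlth_1968 and Hlth_1807, 10.71, 10.50, 10.55, 10.38 and 10.74 in Veh_low_1810, Veh_low_1825, Veh_low_2091, Veh_low_794 and Veh_low_1819, and 10.30, 10.61, 10.97 and 10.69 in Veh_high_798, Veh_high_1770, Veh_high_1831 and Veh_high_2088. The arms overlapped, and their difference of -0.24 did not pass (adjusted p = 0.414, limma). Atf4, whose protein is mainly set by translation, ran between group means of 10.18 in Sulin and 10.48 in Hlth. Trib3, an ATF4 and CHOP target, had group means between 4.77 and 4.95, near the median gene mean, and Chac1, another CHOP-branch target, between 4.96 and 5.25.

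The 3 genes of amino acid synthesis, all ATF4 targets, were dim in these livers. Psat1, phosphoserine aminotransferase, ran from 4.38 over 4.63 to 4.97 in Sulin and from 4.23 over 4.46 to 4.60 in AspClo. It was 5.11, 4.39, 4.50, 4.31 and 4.64 in Hlth_1798, Hlth_1804, Hlth_1965, Hlth_1968 and Hlth_1807, 4.47, 4.50, 4.45, 4.38 and 4.41 in Veh_low_1810, Veh_low_1825, Veh_low_2091, Veh_low_794 and Veh_low_1819, and 4.43, 4.40, 4.54 and 4.61 in Veh_high_798, Veh_high_1770, Veh_high_1831 and Veh_high_2088. The groups overlapped, and the differences of 0.18 for sulindac against vehicle (adjusted p = 0.446, limma) and -0.21 between the arms (adjusted p = 0.372, limma) did not pass. Asns and Phgdh did not pass in any of the 5 comparisons.

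Over the 40 genes the median change was -0.05 for vehicle against chow, 0.04 with HCC, -0.05 under sulindac, 0.02 under aspirin with clopidogrel and 0.10 between the arms, and that of all genes lay between -0.01 and 0.01. The last of these was -0.01 without AspClo_62. Unadjusted p was under 0.05 for 4 of the 40 genes with sulindac, 3 with aspirin and clopidogrel and 7 between the arms, where it was for 10.4%, 14.6% and 10.8% of all genes. Each shift of the 40 genes was below the SD of 0.18 between mice of a group. That SD describes single mice and is not the error of a difference between groups.

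Of 119 further genes of the same pathways that were measured, of 151 listed, 0 passed for diet and 0 with HCC. Under sulindac 2 passed, under aspirin with clopidogrel 5 and between the arms 2, all higher, where 0.199%, 1.96% and 0.877% of all genes passed. Prdx4, an ER peroxiredoxin that takes part in disulfide formation, was higher by 0.28 with sulindac (adjusted p = 0.0327) and by 0.26 with aspirin and clopidogrel (adjusted p = 0.0397), in comparisons that share the vehicle mice. Leaving out 1 mouse ended these calls in 10 and 11 of 30 fits, with adjusted p up to 0.0704 and 0.129. Gadd45a, a stress and DNA damage gene, was higher by 1.01 with sulindac (adjusted p = 0.0302), with 5.16 to 6.39 in vehicle and 6.05 to 7.99 in Sulin, and lost its call in 9 of 30 such fits. Nfil3, a transcriptional repressor that also acts in the clock, differed by -1.14 with sulindac and did not pass (adjusted p = 0.0586). Against Veh_low alone its difference was -1.79 and passed (adjusted p = 0.00294), and against Veh_high alone it was -0.32 (adjusted p = 0.913). The p-values are those of limma.

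With aspirin and clopidogrel, 2 of 36 further targets of the integrated stress response passed, where 1.96% of all genes did. Vldlr, a lipoprotein receptor that the PERK branch is known to raise in liver, was 4.59 to 4.84 in vehicle and 4.95 to 5.61 in AspClo, without overlap. Its change was 0.43 (SE 0.08, adjusted p = 0.00675, limma), and it passed in all 30 fits that left out 1 mouse. This probe set lay near the median gene mean, where changes are compressed, and the probe set with the largest SD gave 1.26. Slc38a2, an amino acid transporter induced on amino acid limitation, was 9.43 over a median of 9.56 to 10.14 in vehicle and 9.83 over 10.15 to 10.64 in AspClo, a change of 0.50 (adjusted p = 0.0387, limma) that was lost in 10 of 30 such fits.

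The same genes were the 2 of 36 that passed between the arms. Vldlr was higher than with sulindac by 0.37 (adjusted p = 0.0299, limma), or by 1.14 with the probe set of largest SD. That call was lost in 7 of 30 fits without 1 mouse and in a fit limited to the 2 arms (adjusted p = 0.0758, limma). Slc38a2 was higher by 0.51 (adjusted p = 0.0494, limma), and its call was lost in 20 of 30 such fits, with adjusted p up to 0.144. Eif4ebp1, an inhibitor of translation and ATF4 target, differed by -0.35 and did not pass (adjusted p = 0.0942, limma). Against vehicle, the RNA ligase gene Rtcb, which joins Xbp1 mRNA after cutting, was higher by 0.16 with aspirin and clopidogrel (adjusted p = 0.0497, limma) and Crp, an acute phase gene and target of CREB3L3, by 0.17 (adjusted p = 0.0349, limma). The call of Rtcb was lost in 23 of 30 fits without 1 mouse and that of Crp in 9.

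The drug arms were also set against chow, a contrast that joins diet and drug. Of all genes 2.98% passed with sulindac and 2.77% with aspirin and clopidogrel, and of the 40 genes Edem1 alone, in the aspirin arm. The oxidase gene Ero1a was lower by 0.62 with sulindac (adjusted p = 0.000728) and by 0.42 with aspirin and clopidogrel (adjusted p = 0.0346), in comparisons that share the chow mice. Against vehicle these differences were -0.35 (adjusted p = 0.0605) and -0.15 (adjusted p = 0.510), and Veh_high differed from chow by -0.51. With sulindac, Ero1a differed by -0.54 from Veh_low alone and passed (adjusted p = 0.00564), and by -0.11 from Veh_high alone (adjusted p = 0.905). In the aspirin arm it differed by -0.34 (adjusted p = 0.133) and 0.09 (adjusted p = 0.817) from the same groups. Herpud2, a relative of Herpud1, was above chow by 0.29 (adjusted p = 0.0175) and 0.32 (adjusted p = 0.0180), and vehicle was above chow by 0.26 (adjusted p = 0.274). Against vehicle Herpud2 differed by 0.03 (adjusted p = 0.926) and 0.06 (adjusted p = 0.769) in the arms. All are limma values.

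With sulindac, Ube2g2, the ubiquitin-conjugating enzyme of the Syvn1 ligase, was below chow by 0.62 (adjusted p = 0.0091), against a difference of -0.41 from vehicle that did not pass (adjusted p = 0.110). From Veh_low alone it differed by -0.61 and passed (adjusted p = 0.0200), and from Veh_high alone by -0.17 (adjusted p = 0.886). Derl2 was above chow by 0.24 (adjusted p = 0.0281), while Veh_high was above it by 0.26 and sulindac differed from vehicle by 0.11 (adjusted p = 0.483). Nfil3 was below chow by 1.18 (adjusted p = 0.0308) and Slc3a2, a subunit of amino acid transporters, by 0.41 (adjusted p = 0.0451), and Gadd45a was above it by 1.08 (adjusted p = 0.0150). With aspirin and clopidogrel the glycine transporter Slc6a9 was below chow by 1.03 (adjusted p = 0.0308), and vehicle differed from chow by -0.59 (adjusted p = 0.665). Apcs, which encodes serum amyloid P, was above chow by 0.66 (adjusted p = 0.0410), Vldlr by 0.52 (adjusted p = 0.00290), Slc38a2 by 0.55 (adjusted p = 0.0420) and Crp by 0.25 (adjusted p = 0.00430). The p-values come from limma.

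For HCC and for diet, none of the 119 genes passed. The smallest p-values for HCC were those of Fkbp11, an ER prolyl isomerase, with a difference of 1.39 (adjusted p = 0.137), Nfil3 with -1.47 (adjusted p = 0.153) and the hepcidin gene Hamp with -0.94 (adjusted p = 0.227). For vehicle against chow they were those of Herpud2, Dnajc1, an ER cochaperone, with -0.38 (adjusted p = 0.443), and Atf5, a factor of the integrated stress response, with 0.56 (adjusted p = 0.593). These too are limma values. Nfil3 was 5.61 and 5.96 in Veh_high_1831 and Veh_high_2088 but 8.11 and 8.10 in Veh_high_798 and Veh_high_1770, against 8.04 to 9.03 in Veh_low. Fkbp11 was 7.70 and 7.71 in Veh_high_1831 and Veh_high_2088, 6.02 and 6.49 in Veh_high_798 and Veh_high_1770, and 5.22 to 5.82 in Veh_low. Hamp was instead lowest in Veh_high_798 and Veh_high_1770, at 11.56 and 11.08 against 12.17 and 11.94.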

How the data were processed

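Expression in 30 mouse livers was read with Affymetrix HT MG-430 PM arrays. Per the labels' protocols, RNA was isolated with Trizol and RNeasy columns. The deposited values are linear intensity per probe set, made by the authors with RMA and quantile normalization, per the series design text; for its version nothing is given in the sources used here. Log2 was taken here. Of 45141 probe sets, 28898 have 1 gene symbol, 551 several and 15588 none, and 28689 matched RefSeq (GRCm38.p6). Each of 17097 genes is represented by its brightest probe set, with no filter on dim genes. Groups follow the labels, which give 9 vehicle mice where the design text lists 4.

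The 5 group means were fitted with limma 3.58.1 in R 4.3.3 (25 residual and 2.37 prior degrees of freedom), with Benjamini-Hochberg adjustment over all genes and a threshold of 0.05. On simulated data with 200 changed genes, a log2 change of 0.5 was recovered for 67% of them for aspirin with clopidogrel and 50.3% for HCC. These shares were not computed for the stress genes, whose SD within groups had a median of 0.248. That of genes at or above the median gene mean was 0.192, so recovery may be lower for the stress genes. Promoters were searched for fixed letters on both strands. The genes, further pathway genes and alternatives were chosen with earlier results of these data known. Values by mouse are given for genes past the threshold and then, up to 12, those with the smallest p in a main comparison, with at least 1 per role; Hspa5, Creld2, Ddit3 and the genes named for single mice were added after their values were seen. Further pathway genes are named where past the threshold in one of the 5 comparisons or against chow, or among the 3 smallest p of one of the 5. A search of protein ends for retention signals was not run. The number of arrays limits the precision.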

Additional observations from a re-analysis of the deposited data

Results flagged for a closer look

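Each gene's values were examined in every group for a mouse whose distance to its nearest neighbour took up an unusually large share of the group's range. Of 200 groups of values, 11 had such a mouse, where chance alone gives about 1 in 20, or 10. Hlth_1798 stood high for Hsp90b1 at 11.96 and for Manf at 11.82, where the next highest chow mice were at 11.75 and 11.06. AspClo_62 stood high for Derl3 at 7.45 and for Eif2ak3 at 7.74, with the next AspClo mice at 5.30 and 6.82. Veh_high_2088 stood high for Derl1 at 10.18 and for Trib3 at 4.98, and Veh_high_1770 stood low for Dnajb11 at 9.54. Edem1 was low in Hlth_1807 at 9.83 and high in Sulin_17 at 10.44. Herpud1 was low in Sulin_15 at 10.62, against 11.18 in the next mouse, and Creb3l3 was high in Veh_low_1819 at 10.72. The cause of these values was not tested.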

How the results depend on the processing

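The median change of the 40 genes moved by less than the SD of 0.18 between mice under all alternatives run. That SD is larger than each main median change, so this does not show a stable direction. The median ran from -0.09 to 0.01 for diet, from -0.07 to 0.01 for sulindac and from -0.04 to 0.09 for aspirin with clopidogrel. Between the arms it ran from -0.01 to 0.14, and for HCC from 0.04 to 0.15, without a change of sign for HCC alone. The call of Edem1 with aspirin and clopidogrel depended on the setting. The count of stress genes past the threshold fell to 0 with the fit limited to the groups compared (adjusted p for Edem1 0.0873), the mean over probe sets (0.168), the probe set with the largest SD (0.462), arrays centred on their median (0.0719), trend and robust (0.0556), without Veh_high_1831 and Veh_high_2088 (0.0585), and against vehicle without or with HCC alone. It kept its direction in all, with changes from 0.17 to 0.24 and adjusted p from 0.0113 to 0.462 (limma). The call was lost without each of Veh_low_1810, Veh_low_1819 and Veh_low_1825, Veh_high_1770 and Veh_high_1831, and AspClo_58, AspClo_61, AspClo_62, AspClo_63 and AspClo_64, with adjusted p from 0.0517 to 0.112. Leaving out 1 mouse gave a count of 0 to 1. Another 1 stress gene passed for sulindac without Veh_high_1831 and Veh_high_2088 (Sec61b), and 1 between the arms with array weights (Derl1). The change of Derl1 between the arms turned from -0.19 to 0.0296 with the probe set of largest SD.

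Counts over all genes moved more. For diet the main count of 2 became 0 with the groups compared alone, 5 with the mean over probe sets, 1 among brighter genes, 375 with array weights, 959 without Hlth_1798, Hlth_1807, Veh_low_794 and Veh_low_1819, and 0 without Veh_high_1831 and Veh_high_2088, with 1 to 36 on leaving out 1 mouse. Those 4 mice were picked because their arrays lay nearer the opposite diet group, so leaving them out widens the diet contrast by construction, and the 959 calls are no evidence for it. For HCC 15 became 0 with the groups compared alone and 0 without Veh_high_1831 and Veh_high_2088, and 0 to 33 without 1 mouse. For sulindac 34 became 91 with the groups compared alone, 88 among brighter genes, 52 with centred arrays, 206 with weights, 143 without those 4 mice and 261 without Veh_high_1831 and Veh_high_2088, with 19 to 148 on leaving out 1 mouse. For aspirin with clopidogrel 335 became 111 with the groups compared alone, 613 with weights and 819 without the 4 mice, and 123 to 571. Between the arms 150 became 239, 407 and 343 in the same order, and 54 to 270. The slopes on Hspa5, added after seeing the data, passed for 4 stress genes and 22 genes without AspClo_62 and Veh_low_794, and for 7 to 12 and 51 to 325 without 1 mouse; the lowest were without AspClo_62. The causes were not tested. No paired analysis was possible because the groups share no replicate numbers.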

Other observations

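Outside the pathway lists, the genes that followed Hspa5 from mouse to mouse with the smallest p were Hspa13, a chaperone of the ER-associated HSP70 family (slope 1.38, adjusted p = 1.75e-05, limma), Nme6 (1.73), Gmppb, which makes GDP-mannose for glycosylation (1.84), and Tmed3, a cargo receptor of the early secretory pathway (1.26). Next came Cdk2ap2 (slope 1.09) and Ubfd1 (adjusted p = 0.000338, limma). Then Gfpt1, the first enzyme of the hexosamine pathway and a known XBP1 target, had a slope of 1.11, Atp2a2, the ER calcium pump, 0.98, and the vesicle fusion protein Stx5a 0.86. These genes were chosen after their values were seen. Without AspClo_62 and Veh_low_794, 22 of all 17096 genes passed.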
